A study of Mus musculus with 6 samples.

Results

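Laminin chain genes and the genes of their integrin receptors were examined in small intestinal crypts of mice with and without Fpr2 in the gut epithelium. The group holds 9 of the 17526 genes in the deposited table, matched by exact symbol: 6 laminin chains (Lama3, Lama5, Lamb1, Lamb2, Lamb3 and Lamc1) and 3 integrin subunits (Itga6, Itgb4 and Itgb1). It was chosen by the measured level of Lama5, which was lower in knockout than in floxed control crypts, and the other 8 genes were added as relatives or partners of that chain. Values of Lama5 in this comparison are therefore a description without a test. The other members were listed in view of the same comparison, so their p-values are read gene by gene and nothing is drawn from them about the group. The 3 floxed control libraries came from mice labelled Fpr2f/f and also labelled WT, and the 3 knockout libraries from mice labelled Fpr2VKO, with an intestinal epithelial knockout of Fpr2, the gene of formyl peptide receptor 2. The labels give no driver of the deletion, strain or age. They also leave unsaid whether each library is a different mouse, and p-values here therefore rest on library-to-library spread that could be technical.

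A laminin is a secreted trimer of an alpha, a beta and a gamma chain that self-assembles into the sheet of the basement membrane under an epithelium. Its alpha chain carries the globular end that integrins bind, so the alpha chain largely sets which receptor engages it. The integrin alpha6beta4, encoded by Itga6 and Itgb4, holds the cell to laminin at hemidesmosomes, where the long tail of beta4 meets plectin and, through it, the keratin filaments. Integrins with the beta1 subunit, encoded by Itgb1, connect laminin to the actin cytoskeleton through talin and kindlin. Gut epithelium is known for a simple form of hemidesmosome that lacks collagen XVII.

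The libraries held 11108511 to 16859902 estimated counts. All 10 epithelial markers were tested and summed to between 10239 and 14643 CPM (library-size-scaled counts, adjusted between libraries by TMM) in the 6 libraries. Of the 10 fibroblast markers present, 7 stayed under 1 CPM in every library, and so did 8 of 9 endothelial markers and 4 of 8 smooth muscle markers. Floxed controls 1 and 3 stood apart on lymphocyte and other immune genes. With Cd74 left out, because epithelial cells express it too, 13 immune markers summed to 296 and 218 CPM in floxed controls 1 and 3, to 71.2 CPM in floxed control 2 and to between 66.6 and 72.7 CPM in the knockouts. Floxed control 2 and knockout 1 stood apart on several clock genes: Dbp was at 6.82 and 4.46 CPM in these libraries and between 23.8 and 44.2 CPM in the other libraries, and Arntl at 27.8 and 34.0 CPM against 5.93 to 11.96 CPM. Nr1d1, another clock gene, did not set them apart (66.5 and 46.8 CPM against 30.8 to 71.4 CPM). Fpr2 itself was not analysed here, so the genotypes were not checked on it.

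Lama5 transcript was 2.79-fold lower in knockout crypts than in floxed controls, while the groups overlapped in every other laminin chain and integrin gene of the group. All 9 members were abundant enough to be tested. Of these, 6 had a negative and 3 a positive log2 fold change for knockout over floxed control, with a median of -0.27, against -0.013 over all 12943 genes tested. By edgeR's quasi-likelihood test 0 of the 9 passed an adjusted p of 0.05 over all genes tested, where 0.0155% of genes passed. With no filter on low counts or with a replicate block 1 member (Lama5) passed, where 67 and 39 of all genes passed. With floxed control 2 left out 1 member (Lama5) passed, where 955 of all genes did. With floxed control 2 and knockout 1 left out Lama5 and Lamb1 passed, where 920 of all genes did. At an unadjusted p under 0.05, 2 members were lower (Lama5 and Lamc1) and 0 were higher, beside 9.63% and 4.09% of all genes. DESeq2 called 1 member lower (Lama5) and 0 higher, beside 2.35% and 0.294% of all genes. In 1 member, again Lama5, every floxed control lay above every knockout, as in 10.3% of all genes, and in 0 members every knockout lay above every floxed control, as in 6.99% of all genes. Because Lama5 was selected on this comparison, its place in these counts is given without a reading.

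**Figure D1:**
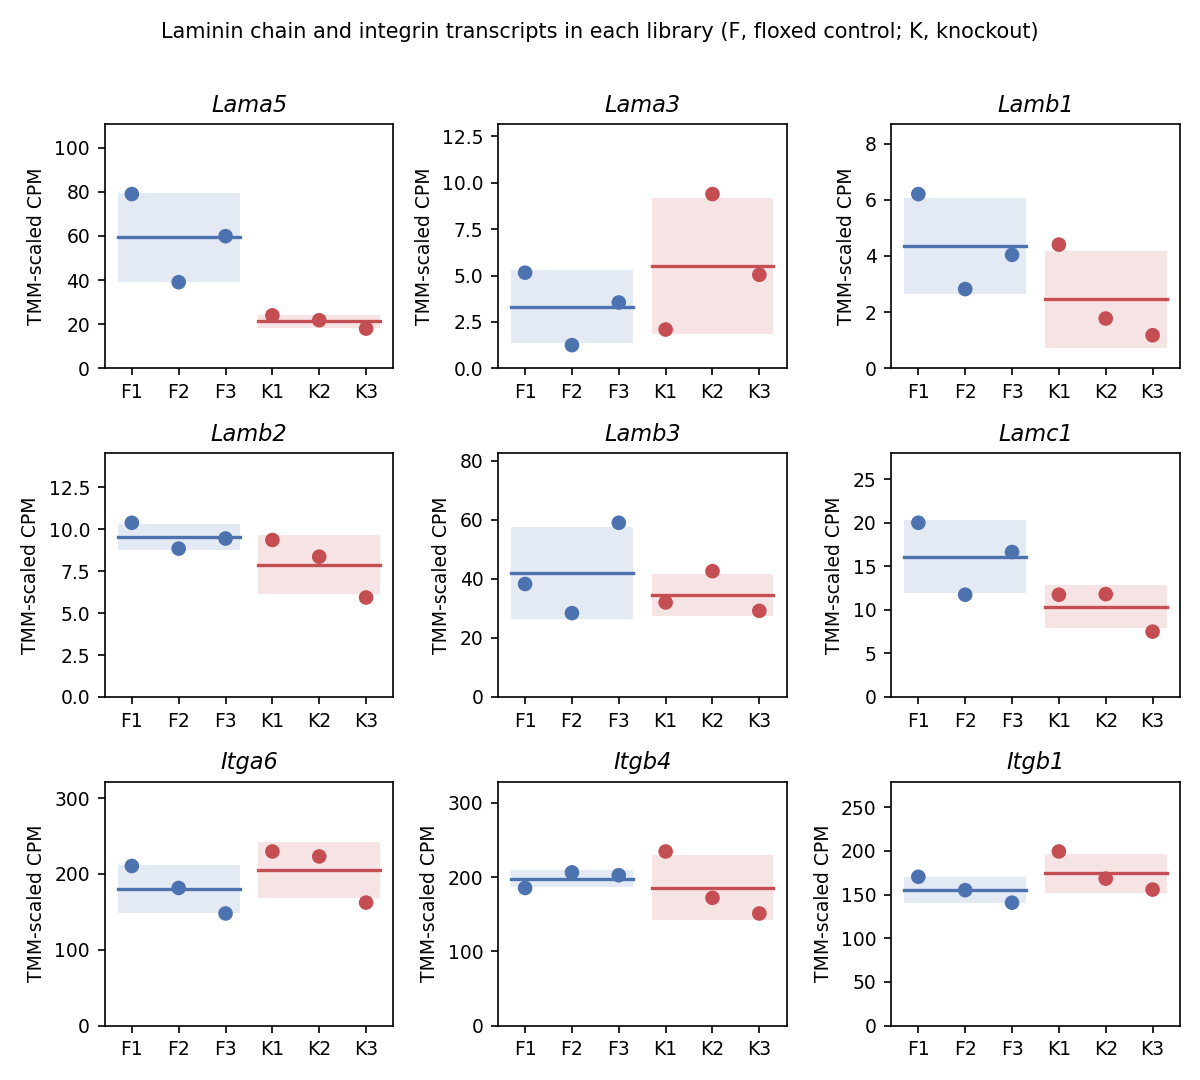
TMM-scaled CPM of each member (vertical axis, starting at 0) in the 3 floxed control libraries (F1 to F3, blue) and the 3 knockout libraries (K1 to K3, red); lines are group means and bands are 1 SD. Lama5 runs from 39.0 to 78.9 CPM in the controls and from 18.0 to 24.0 CPM in the knockouts, and in the other 8 panels the groups overlap.

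Lama5 encodes the alpha5 chain of the trimers alpha5-beta1-gamma1 and alpha5-beta2-gamma1, a chain made by epithelia and a strong ligand for alpha6 and alpha3 integrins. The gene (gene 16776) lies on the minus strand at chr2:180176373-180225904 of GRCm38 (mm10). Floxed controls 1, 2 and 3 held 78.9, 39.0 and 59.9 CPM of it, and knockouts 1, 2 and 3 held 24.0, 21.8 and 18.0 CPM, from 904, 595 and 608 counts and 425, 406 and 321 counts. The groups did not overlap, and floxed control 2 was the control nearest to the knockouts. The group means were 59.3 ± 20.0 and 21.2 ± 3.04 CPM (SD, n = 3 each), a log2 fold change of -1.48 ± 0.24 (SE), or 2.79-fold lower in knockout. With single libraries left out the change ran from -1.70 without floxed control 2 to -1.19 without floxed control 1. Without floxed controls 1 and 3, the libraries rich in immune transcripts, it was -0.82, against 1 control library whose group spread is then unmeasured. Without floxed control 2 and knockout 1 it was -1.80. No other annotated gene shared exon bases with Lama5.

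The RefSeq table for GRCm38.p6 gave promoter windows of 250 bases before to 50 bases after a start for 5 of the members searched, and 3 of them are printed to set the chain that differed beside the most abundant beta chain and a receptor whose groups overlapped. Capitals mark each match to the GC box letters GGGCGG on either strand (CCGCCC on the other), a sequence known to bind Sp family factors and held by 35.7% of the 32851 windows of this length. All 3 run 5′ to 3′ on the gene's strand: Lama5 at chr2:180225810-180226109 (minus), Lamb3 at chr1:193301744-193302043 (plus) and Itgb1 at chr8:128685404-128685703 (plus). Lamb3 had another window, not printed, at chr1:193301993-193302292. Both Lamb3 windows lie inside the gene's span of chr1:193294353-193343878.
Lama5: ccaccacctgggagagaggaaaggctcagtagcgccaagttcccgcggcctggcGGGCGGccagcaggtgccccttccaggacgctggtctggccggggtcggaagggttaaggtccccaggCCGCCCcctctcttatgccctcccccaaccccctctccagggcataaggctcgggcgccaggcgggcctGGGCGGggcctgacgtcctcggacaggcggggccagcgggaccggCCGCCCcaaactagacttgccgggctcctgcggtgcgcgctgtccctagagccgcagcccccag
Lamb3: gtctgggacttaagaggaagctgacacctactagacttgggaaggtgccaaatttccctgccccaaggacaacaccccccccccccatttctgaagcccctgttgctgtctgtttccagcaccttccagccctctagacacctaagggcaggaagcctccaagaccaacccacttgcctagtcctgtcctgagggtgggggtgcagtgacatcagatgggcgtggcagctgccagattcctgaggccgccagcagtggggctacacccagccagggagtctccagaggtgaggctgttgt
Itgb1: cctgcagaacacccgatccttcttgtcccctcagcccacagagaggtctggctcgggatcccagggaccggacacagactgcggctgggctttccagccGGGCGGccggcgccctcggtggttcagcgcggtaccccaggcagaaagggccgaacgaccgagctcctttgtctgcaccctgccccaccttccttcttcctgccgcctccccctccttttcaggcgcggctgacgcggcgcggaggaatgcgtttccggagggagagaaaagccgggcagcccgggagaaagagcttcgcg
The Lama5 window held 4 GC boxes at a G and C content of 72.7%, against a median of 52.7% over all windows. The Itgb1 window held 1 at 67.3%, the Lamb1 window 2 at 63.7%, and the windows of Lamb3 (59.3%) and Lamb2 (44.0%) held 0. None of these windows held the TATA box letters TATAAA (in 13.6% of all windows) or the AP-1 letters TGACTCA (in 5.20%) on either strand. The CCAAT letters (in 37.4% of windows) were found once, in Lamb1, and the TCF/LEF core CTTTGA (in 16.0%) once, in Lamb2. These matches describe letters only, and no binding was measured.

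Lama3 encodes the alpha3 chain, found in the laminin that hemidesmosomes anchor to. The gene (gene 16774) lies on chromosome 18 from 12333417 to 12583013. It was scarce and uneven, with 5.15, 1.25 and 3.54 CPM in the 3 controls against 2.09, 9.39 and 5.04 CPM in the 3 knockouts, from 19 to 175 counts. Knockout 2 was the highest and floxed control 2 the lowest of the 6 libraries. The log2 fold change was 0.75 ± 0.56 (SE; adjusted p = 0.603 by edgeR), and it ran from 0.13 without knockout 2 to 1.28 without floxed control 1. Reads of Lama3 and of an antisense gene that overlaps its exons cannot be told apart without strand information.

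The beta chains join the alpha and gamma chains along the coiled coil of the trimer. Lamb3 (gene 16780), the beta3 chain on chr1:193294353-193343878, was the most abundant of them, with 38.3, 28.4 and 59.0 CPM in the controls against 32.0, 42.6 and 29.2 CPM in the knockouts. The groups overlapped throughout, and floxed control 3 was the highest library. Its log2 fold change of -0.27 ± 0.26 (SE; adjusted p = 0.701) turned to 0.089 without floxed control 3. Lamb2 (gene 16779), the beta2 chain at chr9:108479847-108490530, kept within a narrow band of 8.85 to 10.4 CPM in controls and 5.93 to 9.37 CPM in knockouts (log2 -0.28 ± 0.22, adjusted p = 0.646). Lamb1 (gene 16777), the beta1 chain of the alpha5-beta1-gamma1 trimer at chr12:31265146-31329644, was near the lower limit of these data, with 21 to 78 counts a library. It stood at 6.20, 2.82 and 4.04 CPM against 4.40, 1.77 and 1.18 CPM, so that knockout 1 lay above controls 2 and 3. The log2 fold change of Lamb1 was -0.82 ± 0.48 (adjusted p = 0.483) and ran from -1.55 without knockout 1 to -0.45 without floxed control 1. Without floxed control 2, the lowest control for Lamb1, and knockout 1, the highest knockout, it was -1.79 with an adjusted p of 0.0273 by edgeR. Without floxed controls 1 and 3, which leaves 1 control library, it was -0.14.

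Lamc1 (gene 226519, minus strand of chr1:153218922-153332786) encodes gamma1, a gamma chain shared by many laminins, whose tail is needed for integrin binding. The controls held 20.0, 11.7 and 16.6 CPM and the knockouts 11.7, 11.8 and 7.50 CPM. Floxed controls 1 and 3 were the 2 highest libraries, and floxed control 2 lay level with knockouts 1 and 2. The means were 16.1 ± 4.16 and 10.3 ± 2.47 CPM (SD, n = 3), with a log2 fold change of -0.64 ± 0.25 (SE; unadjusted p = 0.0288, adjusted p = 0.300 by edgeR). It ran from -0.82 without floxed control 2 to -0.42 without floxed control 1. Without floxed control 2 and knockout 1 it was -0.92 (adjusted p = 0.0692), and without floxed controls 1 and 3, which leaves 1 control library, it was -0.12 (adjusted p = 0.922).

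The integrin genes overlapped between the groups and did not pass the test. Itga6 (gene 16403, chr2:71786886-71858427), the alpha6 subunit that pairs with beta4 or beta1, had 210.5, 181.5 and 148 CPM in the controls against 229.6, 223 and 162 CPM in the knockouts. Both groups spanned much the same range (log2 0.19 ± 0.20 SE, adjusted p = 0.738). Itgb4 (gene 192897, chr11:115974725-116008412), the hemidesmosome beta subunit, stood at 185, 206 and 202 CPM against 234, 172 and 151 CPM. The knockouts lay on both sides of the tightly placed controls, with means of 186 ± 43.4 and 198 ± 11.2 CPM (SD, n = 3). Its log2 fold change of -0.092 ± 0.19 (adjusted p = 0.885) turned to 0.041 without knockout 3. Itgb4 exons are overlapped by an antisense gene, so its reads also rest on counting of unknown strand use. Itgb1 (gene 16412, chr8:128685654-128733579), the beta1 subunit shared by many integrins, stood at 170, 155 and 141 CPM against 199, 168 and 156 CPM (log2 0.17 ± 0.17, adjusted p = 0.722). Itgb1 and Itga6 are expressed by blood and stromal cells as well as by epithelium, and in these bulk samples fewer cells of a type and less RNA per cell cannot be told apart.

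**Figure D2:**
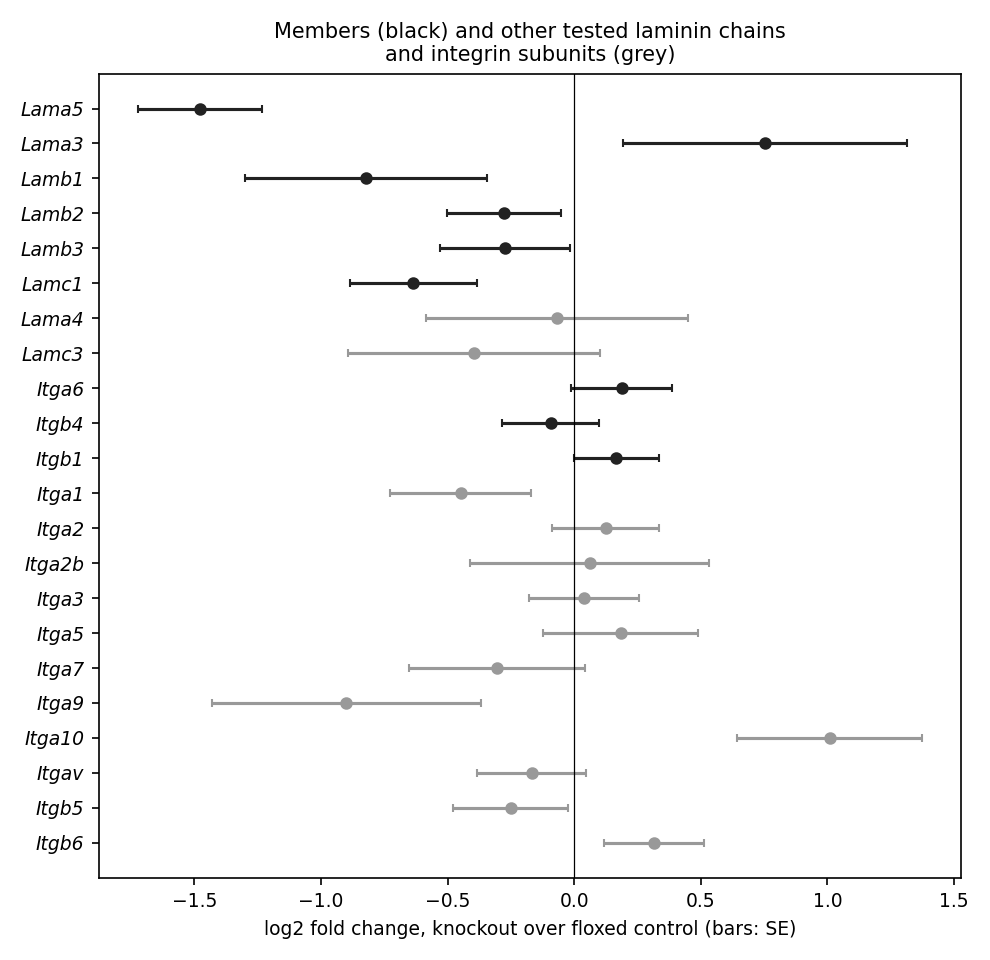
Log2 fold change of knockout over floxed control with its SE (horizontal axis) for the 9 members (black) and for the other laminin chains and integrin subunits that were tested (grey). Lama5 at -1.48 lies farthest to the left, and Itga6, Itgb4 and Itgb1 lie between -0.092 and 0.19.

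Levels of different genes were compared as CPM per kb of merged exons (GENCODE M21). On that scale the integrin subunits were well above the laminin chains in both groups. In the floxed controls Itgb1 (38.1 ± 3.64 CPM per kb), Itgb4 (28.2 ± 1.59) and Itga6 (19.9 ± 3.47) led (SD, n = 3), without overlap between neighbours. Lamb3 (6.33 ± 2.36) and Lama5 (5.21 ± 1.75) followed with overlapping ranges, then Lamc1 (1.95 ± 0.502) and Lamb2 (1.57 ± 0.128), which overlapped, and last Lamb1 (0.439 ± 0.173) and Lama3 (0.308 ± 0.183), which overlapped too. In the knockouts Lama5, at 1.87 ± 0.267 CPM per kb, lay clear below Lamb3 (5.23 ± 1.07) and still clear above Lamb2 (1.30 ± 0.290). Itgb1 led there at 42.7 ± 5.50 CPM per kb, and Itgb4 (26.5 ± 6.19) overlapped Itga6 (22.7 ± 4.12). With the longest RefSeq-matched transcript as the length, Itga6 came first in both groups, so the order among the 3 integrins depends on the gene model, while the order among the laminin chains was the same with either length. The levels themselves moved with that choice: in the controls Lamb3 was at 10.3 CPM per kb and no longer overlapped Lama5, Lamb1 was at 0.752 and Itga6 at 41.8 CPM per kb. Without floxed control 3, Lama5 ranked above Lamb3 in the controls.

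**Figure D3:**
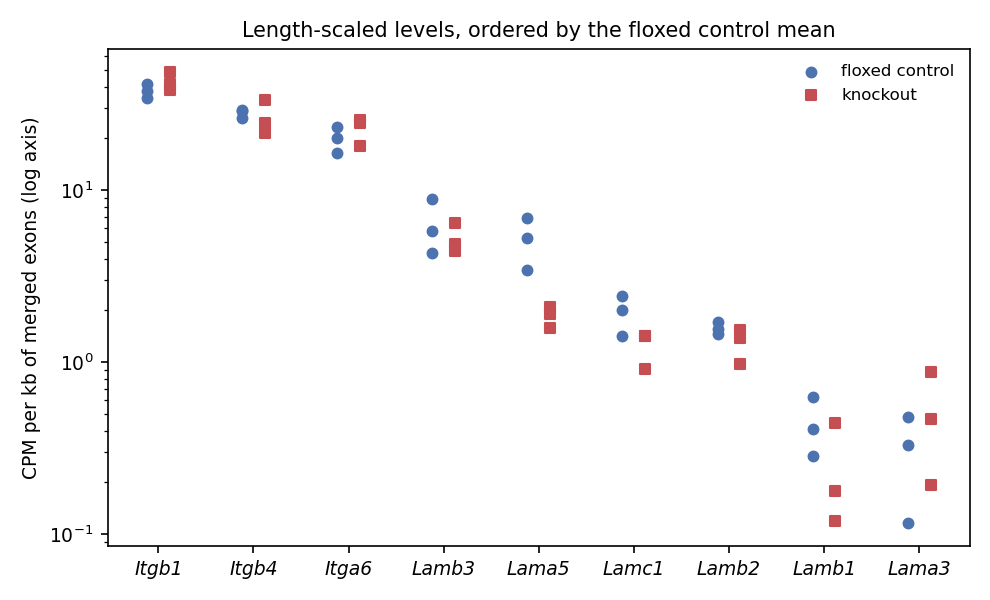
CPM per kb of merged exons (log axis) of the 9 members, ordered by the floxed control mean, with 1 point per library (circles, floxed control; squares, knockout). The 3 integrin subunits lie above 16 CPM per kb in each library and the laminin chains below 9, and Lama5 is the gene whose points do not overlap.

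Shares of each kind of chain were taken within a library, so that they do not move with library scaling. Lama5 made up 91.6%, 95.5% and 92.9% of the summed alpha chain level per kb (Lama2, Lama3, Lama4 and Lama5) for the 3 controls in turn, against 88.1%, 66.4% and 75.1% for the 3 knockouts. Lama3 took most of the remainder, at 3.23% to 6.34% in controls and 8.13%, 30.3% and 22.3% in knockouts. These shares contain Lama5 and are given as a description. Relative to Lamc1, its usual partner, Lama5 lay at a log2 ratio of 1.39 ± 0.12 in controls and 0.60 ± 0.19 in knockouts (SD, n = 3), without overlap.

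Shares that do not contain Lama5 overlapped between the groups. Lamb3 made up 74.8% ± 6.22 of beta chains in controls and 77.2% ± 5.44 in knockouts (SD, n = 3; exact two-sided permutation p = 1.0). Lamb2 made up 19.8% ± 5.03 and 19.2% ± 2.96 (exact p = 0.9), and Lamb1 5.38% ± 2.06 and 3.63% ± 2.49 (exact p = 0.5). The log2 ratio of Itgb4 to Itga6, the pair that forms the hemidesmosome receptor, was 0.51 ± 0.32 in controls and 0.21 ± 0.21 in knockouts (exact two-sided permutation p = 0.3). That of Itgb4 to Itgb1 was -0.43 ± 0.21 and -0.71 ± 0.14 (exact p = 0.2). Adjusted over these 5 comparisons the p-values were between 0.75 and 1, and 3 libraries against 3 cannot give an exact p below 0.1.

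**Figure D4:**
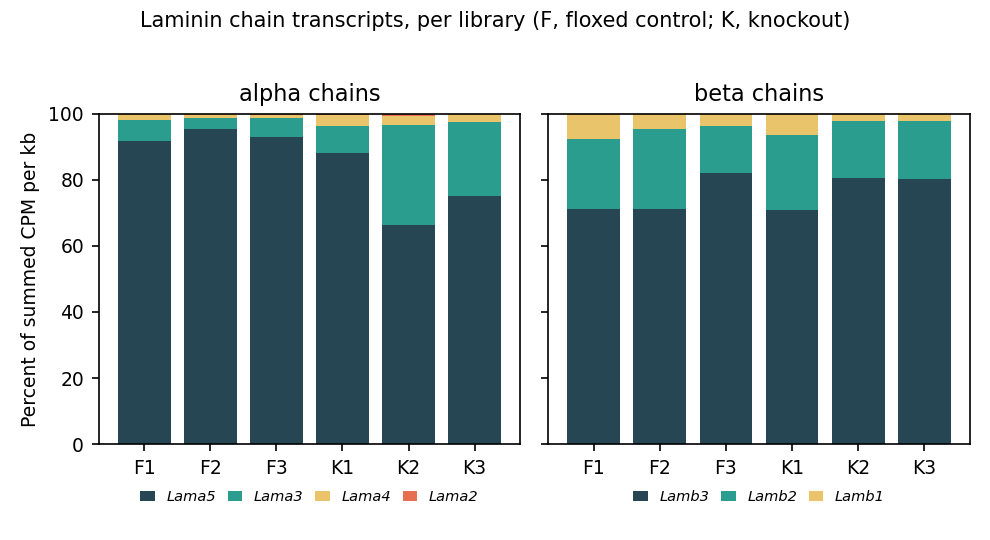
Percent of the summed CPM per kb taken by each alpha and beta laminin chain (stacked bars, 0 to 100%) in each floxed control (F1 to F3) and knockout (K1 to K3) library. The Lama5 part of the alpha chains is between 91.6% and 95.5% in the controls and between 66.4% and 88.1% in the knockouts, while beta shares overlap between the groups.

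Genes of the same families and of the same structure did not pass the test. Their lists were set by function, with earlier results of these data known. Of the other laminin chains examined 2 were tested: Lamc3 had a log2 fold change of -0.40 ± 0.50 (SE) and Lama4 -0.069 ± 0.52, with 0 passing by edgeR over all genes, at an unadjusted p under 0.05, or by DESeq2. Of the 14 other integrin subunits present, 11 were tested, with a median of 0.040 and 0 passing by edgeR or DESeq2. Only Itga10, a collagen receptor subunit at 0.985 to 4.12 CPM, had an unadjusted p under 0.05 (log2 1.01 ± 0.37, adjusted p = 0.256). At that threshold 4.09% of all genes were higher. Every knockout lay above every control in 2 of the 11, beside 6.99% of all genes. Itga2, a collagen receptor subunit, had 0.12 ± 0.21, and Itga1 and Itga9 had -0.45 ± 0.28 and -0.90 ± 0.53.

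Partners inside the hemidesmosome also showed no passing gene, with 8 of 9 tested and a median of -0.097. Plec, encoding plectin, had a log2 fold change of -0.12 ± 0.18 (SE), Cd151, the tetraspanin that binds laminin receptors, -0.20 ± 0.21, Dst, encoding dystonin, -0.28 ± 0.23, and the keratin gene Krt18 -0.37 ± 0.19. Col17a1 was below 1 CPM in every library and was not tested. Among non-integrin laminin receptors 5 of 6 were tested with a median of -0.11: Dag1, encoding dystroglycan, had -0.22 ± 0.24, Bcam, a receptor for the alpha5 chain, -0.31 ± 0.23, and the syndecan gene Sdc1 -0.11 ± 0.19. By edgeR and by DESeq2 0 genes of either list passed, and 0 had an unadjusted p under 0.05.

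Of 21 other basement membrane genes 11 were tested, 9 with a negative change, at a median of -0.23, and 0 passed by edgeR or DESeq2. Ntn4, encoding netrin-4, which binds laminin gamma chains, had -0.67 ± 0.26 and was the member with an unadjusted p under 0.05 (adjusted p = 0.298). At that threshold 9.63% of all genes were lower. Every control lay above every knockout in 2 of the 11 (Col18a1 and Smoc2), beside 10.3% of all genes. Smoc2 (-0.23 ± 0.15), which sits at the median, is also on the list of crypt base stem cell markers. Col15a1 and Col18a1, of the related collagens XV and XVIII, had -0.91 ± 0.43 and -0.56 ± 0.34. Hspg2, encoding perlecan, and Nid2, encoding nidogen-2, had -0.083 ± 0.32 and -0.031 ± 0.27. The collagen IV genes Col4a1 to Col4a6 were too low to be tested. Of 21 genes of integrin adaptors and signalling 18 were tested, 15 with a negative change, at a median of -0.19 against -0.013 over all genes. Of these 0 passed by edgeR or DESeq2. At an unadjusted p under 0.05 by edgeR 3 were lower, beside 9.63% of all genes, and 0 higher, beside 4.09%. The 3 were Src (-0.38 ± 0.15), Zyx, encoding zyxin (-0.39 ± 0.17), and the Src substrate Bcar1 (-0.35 ± 0.15). The talin genes Tln1 and Tln2 had -0.17 ± 0.16 and -0.20 ± 0.17. Controls lay above knockouts without overlap for 5 of the 18, beside 10.3% of all genes, and knockouts above controls for 1, beside 6.99%.

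Immune markers were lower on average in the knockouts but did not follow Lama5 in each library. Immune markers summed without Cd74 were highest in floxed controls 1 and 3, the libraries with the most Lama5, while with Cd74 the 14 genes summed to 1099 to 1383 CPM in the controls and 628 to 1188 CPM in the knockouts, which overlap. Of these genes 14 of 14 had a negative change, with a median of -1.44. At an unadjusted p under 0.05 by edgeR 11 were lower, beside 9.63% of all genes, and 0 higher, beside 4.09%. After adjustment 0 passed by edgeR, and DESeq2 called 6 lower, beside 2.35% of all genes. Ptprc, encoding CD45, gave 22.7, 2.49 and 11.0 CPM in the controls against 3.84, 4.35 and 3.69 CPM in the knockouts, while Gzma and Gzmb, the granzymes, had log2 changes of -1.40 ± 0.36 and -1.36 ± 0.37 (SE). Cd3e and Cd52 had -0.96 ± 0.44 and -1.71 ± 0.41. In floxed control 2 the 13 immune markers summed to 71.2 CPM, within the range of the knockouts. Lama5 in that library, at 39.0 CPM, lay above each knockout (18.0 to 24.0 CPM). The part of immune cells in the Lama5 difference was not tested.

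Summed Paneth cell markers, like Lama5, did not overlap between the groups, but their order among the controls was not that of Lama5. The 8 genes had a median log2 change of -1.71. They summed to 62214, 58140 and 115022 CPM in floxed controls 1, 2 and 3, and to 31240, 20925 and 19030 CPM in knockouts 1, 2 and 3. Lama5 was highest in floxed control 1 and lowest of the controls in floxed control 2. By edgeR 0 passed over all genes, and 8 were lower at an unadjusted p under 0.05, beside 9.63% of all genes. DESeq2 called 8 lower, beside 2.35% of all genes. Lyz1, the lysozyme of their granules, had -1.73 ± 0.41 (SE), Mmp7, the protease that matures mouse defensins, -1.42 ± 0.28, and Habp2 and Pnliprp2 -1.41 ± 0.23 and -1.84 ± 0.31. Epithelial markers overlapped between the groups in summed level, with a median of 0.080 over 10 genes, of which 0 passed by edgeR or DESeq2 or had an unadjusted p under 0.05. Epcam alone of them lay higher in every knockout (1338 to 1352 CPM) than in every control (1048 to 1257 CPM), beside 6.99% of all genes. Epcam, Cdh1 and Krt19 had 0.25 ± 0.20, 0.10 ± 0.23 and 0.21 ± 0.28, and Krt18, with the smallest p of the list, -0.37 ± 0.19; 7 of the 10 were positive and 3 negative. How much a change in Paneth cell content bears on Lama5 was not tested.

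Markers of stromal cells, which also make laminins, were mostly low, apart from Fbln1 (58.1 to 79.9 CPM), Vim and Mylk (85.7 to 102 CPM). The 10 fibroblast markers summed to 86.4 to 97.2 CPM in floxed controls and 67.3 to 84.1 CPM in knockouts, without overlap and in the direction of Lama5, and their part in the Lama5 difference was not tested. Without Fbln1 and Vim, a choice made after the values were seen, the other 8 summed to 0.886 to 2.53 CPM in floxed controls and 1.62 to 3.10 CPM in knockouts. Vim, which lymphocytes also express, had a log2 change of -0.89 ± 0.29 (SE; unadjusted p = 0.0100, adjusted p = 0.211), and Fbln1 -0.21 ± 0.16. Of 9 endothelial markers 2 were tested, Pecam1 (-1.35 ± 0.45, unadjusted p = 0.0121, adjusted p = 0.223) and Plvap (0.19 ± 0.46), and all 9 summed to 1.90 to 4.04 CPM in floxed controls and 1.68 to 1.86 CPM in knockouts. The 8 smooth muscle markers summed to 88.6 to 100.1 CPM in controls and 95.5 to 107.6 CPM in knockouts, and 4 were tested, with a median of 0.30 and none at an unadjusted p under 0.05: Acta2, Myh11, Des and Mylk had -0.22 ± 0.51, 1.03 ± 0.49, 0.52 ± 0.48 and 0.082 ± 0.15. By edgeR and by DESeq2 0 genes of these 3 lists passed.

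**Figure D5:**
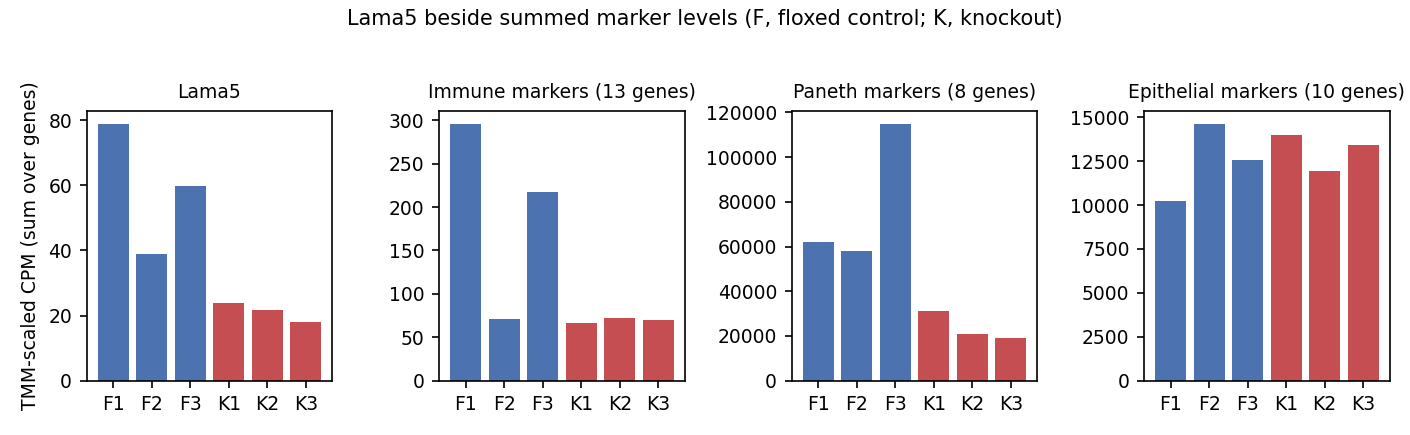
TMM-scaled CPM of Lama5 and summed CPM of 13 immune, 8 Paneth cell and 10 epithelial marker genes (bars, each axis starting at 0) in the floxed control (F1 to F3, blue) and knockout (K1 to K3, red) libraries. Immune markers are high in F1 and F3 alone, Paneth markers are higher in all 3 controls, and epithelial markers overlap between the groups.

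The genes most like Lama5 across the 6 libraries, by Pearson's r of log2 CPM among 9612 genes with a mean log2 CPM of at least 3, were Parp16 (r = 0.999), Map2k1 (0.991), Fam110c (0.989), Vav1 (0.988) and Foxa2 (0.986). These values describe likeness of shape, include the difference between the groups and share the libraries' depth and cell content. The sizes differed widely: Map2k1, encoding the kinase MEK1, had a log2 fold change of -0.10, Fam110c -0.28 and Parp16 -0.48, while Foxa2, a transcription factor of gut endoderm, had -0.84 and Vav1, a signalling gene of blood cells, -0.89. Among the members Lamc1 was the most like Lama5 (r = 0.913), followed by Lamb1 (0.798) and Lamb2 (0.749). Lamb3 had 0.478 and Itgb4 0.313, and Lama3, Itga6 and Itgb1 had -0.145, -0.184 and -0.310.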

How the data were processed

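Per the labels' protocols, crypt RNA went into mRNA libraries read as single 50 bp reads (DNBSEQ). The genome build is mm10, per the submitters' processing notes, and the sources used here give no aligner, counter or strand setting. The values are estimated counts per gene as deposited, which the authors had not normalised; 31.1% to 35.2% of them were not whole in a library, so they were rounded for count tests, where raw counts had been assumed. No 2 libraries of a group agreed within counting noise.

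Genes were filtered with filterByExpr and tested with edgeR 4.0.16 (R 4.3.3): TMM scaling, robust quasi-likelihood fit, knockout over floxed control, Benjamini-Hochberg adjustment over 12943 genes. The biological coefficient of variation was 20.3%. Log2 CPM used a prior count of 2. Exon lengths came from GENCODE M21 and promoters and coordinates from RefSeq for GRCm38.p6, in which all 9 members matched by gene ID. Exact tests and figures used Python 3.11.15, scipy 1.17.1 and matplotlib 3.10.9. The code was tested on simulated data. Alternatives were DESeq2 1.42.0, limma-voom (limma 3.58.1), other scaling, other filters, a replicate block, other gene lengths and libraries left out.

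The members, the 14 further lists and the libraries left out in pairs were chosen with earlier results of these data known. Named genes were all members, the first 2 tested and up to 3 genes of smallest p of each further list, and the 5 genes most like Lama5. Dbp, Arntl, Nr1d1, Smoc2, Col17a1, the collagen IV genes and the marker sums without Cd74, or without Fbln1 and Vim, were added after the values were seen. A gene of these lists is not reported here.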

Additional observations from a re-analysis of the deposited data

How the results depend on the processing

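The count of genes passing over all genes, 2 by edgeR, was 2 as well with limma-voom, with TMM computed without the 50 most abundant genes and with a filter of 1 CPM in 3 libraries, 0 with DESeq2-type (RLE) size factors, 67 with no filter beyond 1 count and 342 with DESeq2, which left 251 genes without an adjusted p. Leaving out 1 library at a time gave 0 to 955, the highest without floxed control 2, with 12 lacking floxed controls 1 and 3 and 920 without floxed control 2 and knockout 1. For genes of the 14 further lists the count was 0, with 16 by DESeq2, 6 without the filter, 0 to 31 with 1 library left out (31 without floxed control 2) and 26 without floxed control 2 and knockout 1. The cause of these differences was not tested. With the replicate block 39 genes and 2 list genes passed. Deviations of same-numbered libraries from their group means had r = -0.18, -0.27 and 0.068, and floxed control 1 was closest to knockout 2 (r = 0.38). Deviations from a mean of 3 libraries are tied to each other, so these values cannot settle whether libraries were paired. Among the members by edgeR, Lama5 passed an adjusted p of 0.05 with no filter, with the replicate block, without floxed control 2 and without floxed control 2 and knockout 1, where Lamb1 passed too. Lama5 was selected on this comparison, so its passing is listed without a reading. Of the 9 members, none changed the sign of its log2 fold change with RLE size factors, TMM without the 50 most abundant genes, another filter or another tool. Scaled to the library total without TMM, Itgb4 averaged 26.1 CPM per kb in floxed controls and 28.5 in knockouts, the reverse of its order with TMM. Lamb3 ran from -0.48 to 0.089 and Itgb4 from -0.29 to 0.041 with single libraries left out, and Lamb3 was 0.35 without floxed controls 1 and 3. The Lamb2 share of beta chains, knockout minus floxed control, was -0.65 percentage points, ran from -3.42 to 1.50 with 1 library left out and was -4.95 without floxed controls 1 and 3. Lama3 and Lamb1 rest on the lowest counts of the members.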

Other observations

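Crypt base stem cell markers, whose cells sit on the same basement membrane, were negative in 10 of 10 tested genes. Their median log2 change was -0.36, and they summed to 2310 to 3030 CPM in floxed controls and 1622 to 2258 CPM in knockouts, without overlap. Single genes had every control above every knockout in 6 of the 10, beside 10.3% of all genes, and the reverse in 0, beside 6.99%. By edgeR 4 were lower at an unadjusted p under 0.05, beside 9.63% of all genes, and 0 passed after adjustment. DESeq2 called 1 lower, beside 2.35% of all genes. Lgr5, the receptor that marks these cells, gave 97.7, 41.6 and 66.6 CPM in the controls against 35.0, 36.3 and 20.3 CPM in the knockouts. The order of the controls was the same as for Lama5 and for the sum of the 13 immune markers without Cd74. Olfm4, Tnfrsf19 and Znrf3 had log2 changes of -0.33 ± 0.24, -0.91 ± 0.25 and -0.47 ± 0.17 (SE).

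Villus enterocyte markers had a median of -0.21 over 12 tested genes, 10 of them negative. By edgeR 2 were lower at an unadjusted p under 0.05, beside 9.63% of all genes, and 0 passed after adjustment. DESeq2 called 1 lower, beside 2.35% of all genes. Slc2a2, the basolateral glucose transporter, and Lct, lactase, had log2 changes of -1.09 ± 0.33 and -0.90 ± 0.32 (SE), and Slc5a1, the sodium-glucose cotransporter, -0.38 ± 0.21. Alpi and Apoa1 had -0.19 ± 0.26 and -0.30 ± 0.51.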
